A study of Mus musculus with 4 samples.

Results

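The neurons described here were selected from single-cell RNA libraries of embryonic mouse neocortex as neurons with transcripts of Fezf2 and Bcl11b, a pair of regulators that mark layer 5 neurons projecting out of the cortex. A member was a barcode with at least 1 UMI (a unique molecular identifier, which counts 1 captured transcript) of Fezf2, at least 2 of Bcl11b and at least 1 of Neurod6, a gene of postmitotic excitatory cortical neurons. Members further held at most 1 UMI of Hs3st4 (layer 6), at most 2 of Unc5d, at most 1 of Rorb (layer 4), no Gad2 (inhibitory neurons) and at most 1 of Krt8, Cytl1 and Lbhd2 together, which mark cells that earlier results found almost only in i4F-Nes libraries. Barcodes with 2 or more of 5 subplate markers or 3 or more of 5 radial glia markers were left out. Of 28672 barcodes that passed the quality limits, 1110 met the rule. There were 288 and 142 members in the i4F-Nes libraries 1 and 2, and 441 and 239 in the CTR libraries 1 and 2.

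The i4F-Nes embryos were Nestin-Cre;i4F;ROSA-STOP-rtTA. The Cre driver is active in neural progenitors and, in cells with a Cre history, lets doxycycline switch on the 4 reprogramming factors Pou5f1, Sox2, Klf4 and Myc. The CTR embryos were littermates of genotype i4F;ROSA-STOP-rtTA, which carried the same inducible cassette without Cre. The controls shared the drug, since the drinking water of all dams held doxycycline at 0.2 mg/ml between E10.5 and E14.5 (4 days). Rostral neocortex was collected at E15.5. Each group had 2 libraries, and the number of embryos per library was not given in the sources used here, and the p-values therefore reflect only how much these libraries differ, which may be technical.

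Fezf2 is a zinc finger transcription factor that directs cortical neurons to a subcerebral fate, in which the axon grows to the pons and spinal cord. Bcl11b, also called Ctip2, acts downstream of it in the outgrowth and bundling of those axons. Tbr1 favours the layer 6 corticothalamic fate, and Sox5 delays the subcerebral programme in layer 6 and subplate neurons. In the embryo these regulators overlap in the same young neurons before fates are settled.

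The libraries held 94052724 to 153706503 UMIs. The median member held 18761.5 and 16877 UMIs in i4F-Nes, against 18064 and 15909 in CTR. The summed UMIs of the members were 5414179 and 2177152 in i4F-Nes, against 7803237 and 3640392 in CTR, so the i4F-Nes library 2 gave the least precise gene levels. No member barcode was shared between libraries, and 4 and 3 members in i4F-Nes, against 1 and 2 in CTR, were among the barcodes with the highest doublet scores. Members of CTR 1 had no Xist UMI, against 875 and 925 CPM (UMIs of a gene scaled to a total of 1000000 summed UMIs of a class in a library) in i4F-Nes and 1074 CPM in CTR 2, so the libraries differed in sex makeup. The 4 factors were low in members of every library: Pou5f1 had 1.29 and 0.459 CPM in i4F-Nes against 1.54 and 1.099 CPM in CTR, Klf4 had 0.739 and 0.459 CPM against 4.36 and 1.65 CPM, Myc had 17.0 and 13.8 CPM against 25.2 and 7.69 CPM, and Sox2 had 7.39 and 4.13 CPM against 2.18 and 0.275 CPM. Sox2 and Myc had enough UMIs to be tested and did not pass, and whether transcripts of the cassette count under these gene names is not given in the sources used here.

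For comparison, 2 other classes of neuron were taken from the same libraries with the same exclusions. Layer 6 neurons held at least 1 UMI of Tle4 and at least 2 of Hs3st4 (183 and 120 cells in i4F-Nes, 319 and 192 in CTR). Callosal-type neurons were chosen by a further marker and held no UMI of Fezf2 or Bcl11b and at most 1 of Hs3st4 (132 and 270 cells in i4F-Nes, 92 and 320 in CTR). Because the rule chose the classes by their UMIs, differences between classes are given as values, with no test.

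Of the marker genes that the rule did not use, Nefm and Kcnq5 matched the label more closely than Ldb2. Nefm, the medium neurofilament subunit of long axons, had 54.3 and 76.7 CPM in members of i4F-Nes and 60.4 and 68.4 CPM in members of CTR. In layer 6 neurons it had 10.8 and 30.4 CPM in i4F-Nes and 15.47 and 17.3 CPM in CTR, and in callosal-type neurons 20.7 and 23.6 CPM in i4F-Nes and 31.4 and 32.7 CPM in CTR. The members were thus the highest class for Nefm in all 4 libraries. Kcnq5, a voltage-gated potassium channel, had 965 and 1050 CPM in members of i4F-Nes and 637 and 1231 CPM in members of CTR. Its levels were 308 and 687 CPM in i4F-Nes and 222 and 294 CPM in CTR in layer 6 neurons, below the members in every library. In callosal-type neurons Kcnq5 had 745 and 1059 CPM in i4F-Nes and 362 and 633 CPM in CTR, so that members and callosal-type neurons were level in i4F-Nes 2. Ldb2, a cofactor of LIM domain transcription factors, had 647 and 418 CPM in members of i4F-Nes and 621 and 638 CPM in members of CTR. Layer 6 neurons had 410 and 492 CPM in i4F-Nes and 648 and 463 CPM in CTR, and the classes overlapped.

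Other layer 5 genes did not settle a purely subcerebral label. Bcl11b itself was lower in members, at 481 and 571 CPM in i4F-Nes and 495 and 437 CPM in CTR, than in layer 6 neurons, at 801 and 607 CPM in i4F-Nes and 997 and 858 CPM in CTR. Etv1, a layer 5 transcription factor, had 0.185 and 5.51 CPM in i4F-Nes and 0.128 and 2.47 CPM in CTR. Pcp4, a calmodulin-binding protein of mature layer 5, had 29.7 and 20.7 CPM in i4F-Nes and 28.4 and 27.7 CPM in CTR. Etv1 was thus a layer 5 marker that the members held at 5.51 CPM or less. The part of the stage, E15.5, in the levels of Etv1 and Pcp4 was not tested. The layer 5 gene list used below, which holds genes of the rule, summed to 5862 to 7100 CPM in members. It summed to 7980 to 10248 CPM in layer 6 neurons and 2225 to 2938 CPM in callosal-type neurons. The cells are therefore called Fezf2 Bcl11b neurons below, after the rule that chose them.

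**Figure D1:**
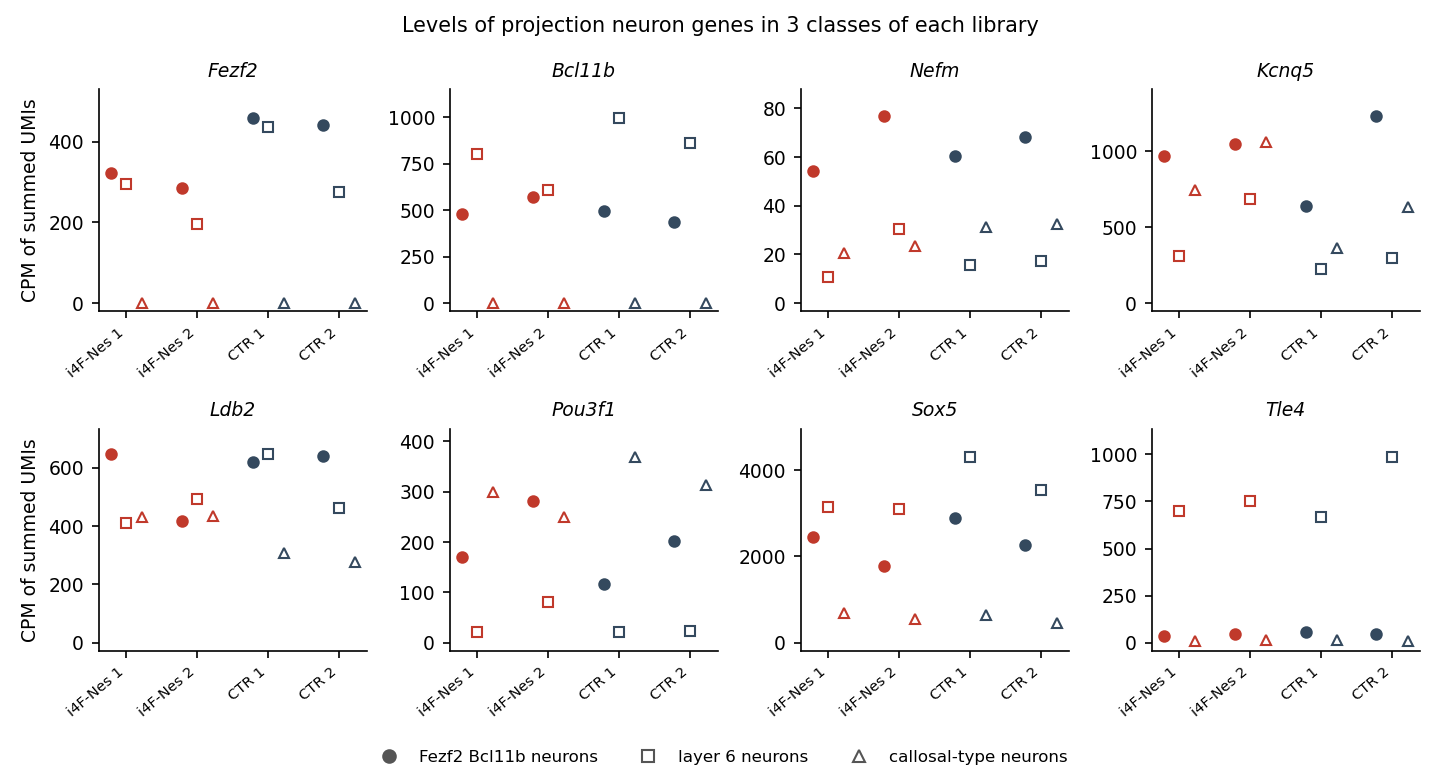
CPM of summed UMIs (y axis) of 8 projection neuron genes in each library (x axis), for Fezf2 Bcl11b neurons (filled circles), layer 6 neurons (open squares) and callosal-type neurons (open triangles), with 1 point per class and library. Nefm was highest in the Fezf2 Bcl11b neurons of every library, Pou3f1 was higher in them than in layer 6 neurons, and Fezf2 and Bcl11b are 0 in callosal-type neurons because the rule set them so.

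Set against layer 6 neurons, fewer genes were higher in the Fezf2 Bcl11b neurons than lower. Of 6377 genes with at least 20 CPM in every library in either class, 22 were at least 2-fold higher in members in all 4 libraries and 141 at least 2-fold lower. Pou3f1, a POU domain factor of the cortical plate, had 170 and 281 CPM in members of i4F-Nes and 118 and 202 CPM in members of CTR, and 22.3 and 80.3 CPM in i4F-Nes and 21.4 and 22.9 CPM in CTR in layer 6 neurons. Bhlhe22, a basic helix-loop-helix factor needed for corticospinal axons, had 274 and 311 CPM in members of i4F-Nes and 280 and 352 CPM in members of CTR, and 111 to 129 CPM in layer 6 neurons. Ptn, the secreted growth factor pleiotrophin, had 648 and 792 CPM in members of i4F-Nes and 318 and 617 CPM in members of CTR, against 83.9 to 267 CPM in layer 6 neurons and 922 to 1839 CPM in callosal-type neurons. For each of these 3 genes the callosal-type neurons were at or above the layer 6 level in every library.

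Set against callosal-type neurons, more genes were higher in the Fezf2 Bcl11b neurons than lower. Of 6208 genes measured in the same way, 59 were at least 2-fold higher in members in all 4 libraries and 44 at least 2-fold lower. Tshz3, a zinc finger factor of corticofugal neurons, had 252 and 172 CPM in members of i4F-Nes and 332 and 261 CPM in members of CTR, against 13.4 to 49.3 CPM in callosal-type neurons. Ephb1, a receptor for ephrin-B ligands, had 257 and 261 CPM in members of i4F-Nes and 226 and 223 CPM in members of CTR, against 35.02 to 53.6 CPM in callosal-type neurons and 504 to 618 CPM in layer 6 neurons. Cadps, a protein of dense-core vesicle release, had 357 and 335 CPM in members of i4F-Nes and 354 and 374 CPM in members of CTR, against 58.6 to 73.5 CPM in callosal-type neurons. Sox5 had 2440 and 1767 CPM in members of i4F-Nes and 2880 and 2268 CPM in members of CTR, with 464 to 689 CPM in callosal-type neurons and 3095 to 4314 CPM in layer 6 neurons.

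The rule narrowed the cells in steps that did not weigh equally. Neurod6 and Fezf2 were both detected in 45.1% and 24.2% of kept barcodes in i4F-Nes and 60.6% and 40.2% in CTR. The Bcl11b limit left 33.7% and 14.9% in i4F-Nes and 39.3% and 25.3% in CTR, and the limits on Hs3st4, Unc5d and Rorb brought these to 4.01% and 2.28% in i4F-Nes and 7.40% and 3.52% in CTR. Members with exactly 2 Bcl11b UMIs, just inside the rule, numbered 47 and 32 in i4F-Nes and 66 and 63 in CTR. Barcodes with 1 Bcl11b UMI that met all other limits, just outside it, numbered 51 and 56 in i4F-Nes and 96 and 85 in CTR. Nefm levels on the 2 sides of the limit overlapped in both groups, 61.6 and 67.5 CPM inside in i4F-Nes and 75.8 and 76.5 CPM inside in CTR, against 42.4 and 102 CPM outside in i4F-Nes and 51.8 and 80.97 CPM outside in CTR. Sox5, Ldb2 and Kcnq5 were each higher just inside than just outside in all 4 libraries, Sox5 with 1482 and 2102 CPM inside in i4F-Nes and 1888 and 1730 CPM inside in CTR, against 1428 and 1354 CPM outside in i4F-Nes and 1357 and 1325 CPM outside in CTR.

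Fezf2 Bcl11b neurons made up 3.54% (exact binomial 95% interval 3.15% to 3.97%) and 2.05% (1.73% to 2.41%) of kept barcodes in i4F-Nes, against 6.83% (6.23% to 7.47%) and 3.34% (2.93% to 3.78%) in CTR. The intervals cover counting error only. The i4F-Nes 1 share lay above the CTR 2 share, so the groups overlapped. The mean share was 2.80% ± 1.06 in i4F-Nes and 5.08% ± 2.47 in CTR (SD, n = 2 libraries each), a difference of -2.29 percentage points that did not exceed the spread between libraries (exact two-sided permutation test, p = 0.667, where 6 splits allow no p below 0.333). The ratio of the i4F-Nes to the CTR mean was 0.550. Without CTR 1 the difference was -0.541 points, and without CTR 2 it was -4.03 points.

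Layer 6 neurons made up 2.25% and 1.73% of kept barcodes in i4F-Nes, against 4.94% and 2.68% in CTR. Both i4F-Nes libraries lay below both CTR libraries (exact permutation test, p = 0.333, the smallest that the design allows). Callosal-type neurons made up 1.62% and 3.90% in i4F-Nes, against 1.43% and 4.47% in CTR, and the groups overlapped (exact permutation test, p = 1). Within either group, library 1 held more of both deep-layer classes and fewer callosal-type neurons than library 2. Fewer cells of a type and less RNA per cell cannot be told apart here where a rule on UMIs defines the class.

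**Figure D2:**
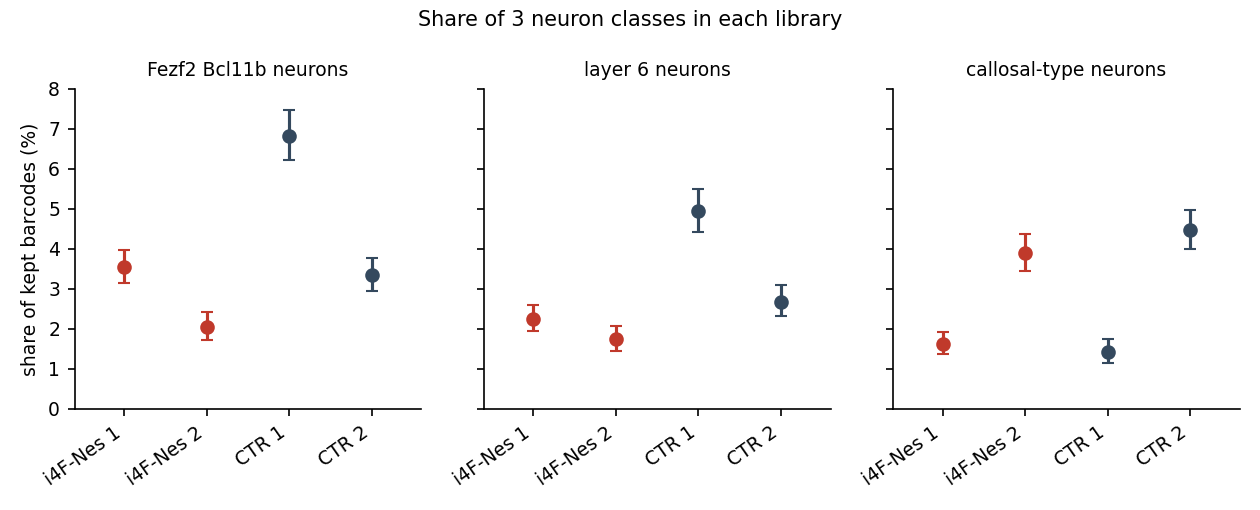
Share of kept barcodes (y axis, percent) that were Fezf2 Bcl11b neurons, layer 6 neurons or callosal-type neurons, in each library (x axis), with exact binomial 95% intervals as bars. The Fezf2 Bcl11b share was 3.54% and 2.05% in i4F-Nes and 6.83% and 3.34% in CTR, and library 1 exceeded library 2 in both groups.

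Gene levels were compared between i4F-Nes and CTR on UMIs summed over the members of each library, with edgeR's quasi-likelihood test and Benjamini-Hochberg adjustment over all genes tested. Of 11616 genes tested, 8 were higher in i4F-Nes and 0 lower at an adjusted p under 0.05, which is 0.0689% of the genes tested. At an unadjusted p under 0.05 there were 335 genes. DESeq2's Wald test called 45 genes (0.387%), 43 higher and 2 lower. The count of calls was 10 without the barcodes of highest doublet score and 18 to 136 when each library was left out in turn. It was 0 of 11826 (285 at an unadjusted p under 0.05) when the rule was applied to cells thinned to 5000 UMIs, and there the adjusted p of these 8 genes lay between 0.203 and 0.713. At an adjusted p under 0.05 the layer 6 neurons had 8 genes among 10944 (0.0731%), with 7 higher (0.064%) and 1 lower (0.00914%) in i4F-Nes. The callosal-type neurons had 0 by edgeR and 0 by DESeq2 among 10378, with 220 genes at an unadjusted p under 0.05.

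The lowest adjusted p was that of Gm32647, a long noncoding RNA gene on chromosome 7 (94042691 to 94709171, plus strand, GRCm38). It had 32.9 and 33.1 CPM in i4F-Nes, against 0.256 and 0.549 CPM in CTR, or 250 UMIs against 4. Both i4F-Nes libraries were high and both CTR libraries near 0, a log2 fold change of 6.41 ± 0.43 (SE, edgeR, adjusted p = 0.000696). St6galnac5 (chromosome 3, 152817081 to 152982246, minus strand), a sialyltransferase that builds gangliosides, had 27.0 and 27.1 CPM in i4F-Nes, against 0.897 and 1.92 CPM in CTR. Its log2 fold change was 4.34 ± 0.40 (SE, edgeR, adjusted p = 0.00699). Plekhg1 (chromosome 10, 3740364 to 3967303, plus strand), a guanine nucleotide exchange factor for small GTPases, had 21.6 and 22.5 CPM in i4F-Nes, against 1.28 and 2.75 CPM in CTR. Its log2 fold change was 3.52 (edgeR, adjusted p = 0.0357). These 3 genes were picked by low p, so the lack of overlap between the groups is no further result.

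Nrp2, Sdk1 and Sphkap passed with the same adjusted p. Nrp2 (chromosome 1, 62703285 to 62818695, plus strand), a co-receptor for class 3 semaphorins that steer axons, had 13.7 and 26.6 CPM in i4F-Nes, against 1.67 and 1.37 CPM in CTR. Its log2 fold change was 3.59 (edgeR, adjusted p = 0.0446). Sdk1 (chromosome 5, 141241490 to 142215586, plus strand), an immunoglobulin-family adhesion protein of synapses, had 136 and 173 CPM in i4F-Nes, against 53.8 and 38.7 CPM in CTR, with a log2 fold change of 1.68 ± 0.23 (SE, edgeR, adjusted p = 0.0446). Sdk1 was the one called gene with over 20 CPM in every library. Without CTR 2 its adjusted p was 0.147. Sphkap (chromosome 1, 83254139 to 83408200, minus strand), which anchors protein kinase A, had 22.2 and 39.5 CPM in i4F-Nes, against 3.46 and 4.67 CPM in CTR (log2 fold change 2.88, edgeR, adjusted p = 0.0446).

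The remaining 2 calls were Slc35f3 and Tafa1. Slc35f3 (chromosome 8, 126298558 to 126395482, plus strand), a solute carrier, had 15.51 and 17.9 CPM in i4F-Nes, against 1.41 and 0.275 CPM in CTR (log2 fold change 3.98, edgeR, adjusted p = 0.0444). Tafa1 (chromosome 6, 96113154 to 96657198, plus strand), a secreted chemokine-like protein, had 8.50 and 24.3 CPM in i4F-Nes, against 0.128 and 0.275 CPM in CTR (edgeR, adjusted p = 0.0446). With 99 UMIs in i4F-Nes and 2 in CTR, the ratio of Tafa1 per summed UMI was 74.6 (95% counting interval 20.1 to 625). With RLE scaling in place of TMM, Nrp2, Sdk1, Sphkap and Tafa1 had an adjusted p of 0.0526 and no longer passed, and Tafa1 also missed the threshold under a stricter rule for members and without the limit on Krt8, Cytl1 and Lbhd2.

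**Figure D3:**
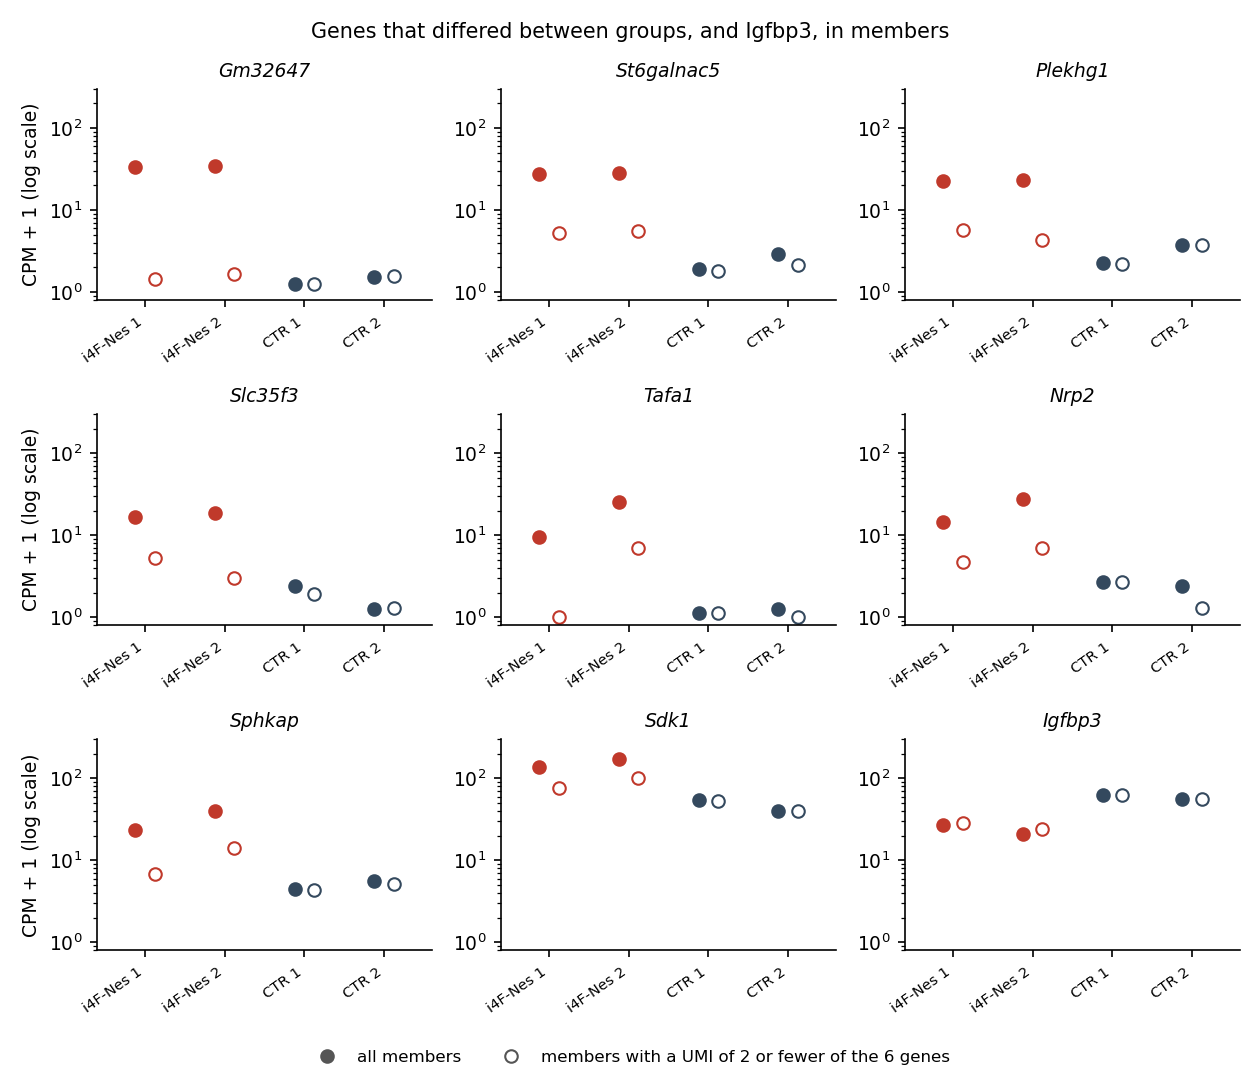
CPM plus 1 on a log axis (y axis) of the 8 genes that were higher in i4F-Nes, and of Igfbp3, in each library (x axis). Filled circles are all Fezf2 Bcl11b neurons, and open circles are those with a UMI of at most 2 of 6 genes, among them Slit3, Epha6, Zfp521, Zfp536 and Pde1a. Gm32647 had 32.9 and 33.1 CPM in all i4F-Nes members and 0.431 and 0.663 CPM in those outside the cells with 3 or more of the 6 genes, while Igfbp3 was lower in i4F-Nes in either set.

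By edgeR no gene fell past the threshold, and DESeq2 called 2 lower, Igfbp3 and Klf2. The lowest p among lower genes was that of Igfbp3, a secreted binding protein for insulin-like growth factors, with 25.7 and 19.8 CPM in i4F-Nes, against 61.4 and 55.2 CPM in CTR. Its log2 fold change was -1.39 ± 0.20 (SE, edgeR, adjusted p = 0.0600), and DESeq2 gave an adjusted p of 0.00504. Kctd8, an auxiliary subunit of GABA-B receptors, had 50.2 and 28.9 CPM in i4F-Nes, against 82.1 and 67.8 CPM in CTR (adjusted p = 0.508). Slc17a7, the vesicular glutamate transporter VGLUT1, had 16.6 and 10.1 CPM in i4F-Nes, against 30.8 and 23.9 CPM in CTR (adjusted p = 0.519). Rprm, a cell cycle inhibitor of deep-layer neurons, had 90.1 and 97.8 CPM in i4F-Nes, against 163 and 127 CPM in CTR (adjusted p = 0.685). None of these 4 genes passed edgeR's threshold. They were picked by low p, so both i4F-Nes libraries lying below both CTR libraries in each is no further result.

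Among higher genes that missed the threshold, Zfp536, a zinc finger repressor of neuronal differentiation, came nearest, with 36.9 and 74.9 CPM in i4F-Nes, against 2.31 and 4.67 CPM in CTR (adjusted p = 0.0567). Ahcyl2 had 68.5 and 64.3 CPM in i4F-Nes, against 28.3 and 25.3 CPM in CTR (adjusted p = 0.0625). Nrxn3, a presynaptic adhesion protein, had 53.4 and 102 CPM in i4F-Nes, against 15.51 and 12.1 CPM in CTR (adjusted p = 0.0625). Zbtb20, a transcription factor gene, had 81.3 and 119 CPM in i4F-Nes, against 19.5 and 32.1 CPM in CTR (adjusted p = 0.117). Slit3, a secreted ligand of Robo receptors, had 83.7 and 116 CPM in i4F-Nes, against 7.82 and 1.37 CPM in CTR (adjusted p = 0.132). These 5 genes were picked by low p, so both i4F-Nes libraries lying above both CTR libraries in each is no further result.

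Fezf2 and Bcl11b chose the members, so their levels are given with no test. Fezf2 had 322 and 284 CPM in i4F-Nes, against 460 and 441 CPM in CTR. Both i4F-Nes libraries were below both CTR libraries, and the same order held in layer 6 neurons only for the means, with 295 and 195 CPM in i4F-Nes against 438 and 276 CPM in CTR. Bcl11b had 481 and 571 CPM in i4F-Nes, against 495 and 437 CPM in CTR, and the groups overlapped. Of the markers that the rule did not use, Sox5 had a log2 fold change of -0.34 ± 0.29 and Ldb2 of -0.30 ± 0.28. Nefm and Kcnq5 had log2 fold changes of -0.04 ± 0.23 and 0.04 ± 0.35. Each of these 4 had an adjusted p of 1.00 (SE, edgeR).

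Groups of genes were described by their counts and medians beside those of all tested genes. Over all 11616 genes the median log2 fold change was -0.01, and 47.8% were positive. Calls in the lists are edgeR's, and DESeq2's are named where they differ. The lists of layer 5, callosal and layer 6 genes hold genes that the rule used, and so does that of subplate genes. The list of layer 5 genes had 28 of 36 members tested, 14 of them positive, with a median of -0.00262 and Tafa1 as its 1 call, to which DESeq2 added Crym. The callosal list had 21 of 24 tested, 13 positive, with a median of 0.09 and no call by edgeR, while DESeq2 called Kitl higher. In it, Cux1, an upper-layer homeodomain factor, had 71.5 and 65.7 CPM in i4F-Nes, against 46.0 and 36.3 CPM in CTR, without passing. The layer 6 list had 18 of 19 tested, 6 positive, with a median of -0.29 and no call by edgeR. Its highest value was that of Crym, which DESeq2 called and which binds thyroid hormone, with 16.8 and 35.4 CPM in i4F-Nes, against 4.87 and 4.67 CPM in CTR (adjusted p = 0.132).

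Of genes of axon growth, Nrp2 passed the test. The axon guidance list had 51 of 56 members tested, 32 positive, with a median of 0.08 and Nrp2 as its 1 call, against 0.0689% of all genes tested. At an unadjusted p under 0.05 there were 9 of the 51, against 335 of all 11616 genes, and DESeq2 called Slit3, Nrp2 and Sema3c. The axon guidance list was not alone in this. The same limit was met by 5 of 37 channel genes, 8 of 53 synapse genes and 6 of 28 layer 5 genes. The 6 layer 5 genes included Fezf2, which the rule used to choose the members, so that count is no test of the list. It was met by 0 of 26 glycolysis and hypoxia genes and 0 of 13 mitochondrially encoded genes. The receptors Dcc, Robo1 and Robo2 had log2 fold changes of 0.39, 0.30 and 0.11, and none passed. Dcc, the netrin receptor, had 2688 and 1842 CPM in i4F-Nes, against 1938 and 1393 CPM in CTR, so the groups overlapped. Chl1, an adhesion protein of growing axons, had 344 and 570 CPM in i4F-Nes, against 218 and 242 CPM in CTR, without overlap and without passing (adjusted p = 0.883). The cytoskeleton list had 34 of 36 members tested, 15 positive, with a median of -0.01 and no gene at an unadjusted p under 0.05. In it Gap43, a growth cone protein, had 479 and 757 CPM in i4F-Nes, against 388 and 493 CPM in CTR, and Tubb3, neuronal beta-tubulin, had 2340 and 2418 CPM, against 2753 and 2456 CPM.

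The channel list had 37 of 38 members tested, 26 positive, with a median of 0.16, no call by edgeR and 1 by DESeq2. Kcnd2, an A-type potassium channel, had 133 and 132 CPM in i4F-Nes, against 82.8 and 73.1 CPM in CTR (unadjusted p = 0.00326, adjusted p = 0.508). The synapse list had 53 of 56 tested, 34 positive, with a median of 0.13 and no call by edgeR, while DESeq2 called Nrxn3 higher. Lists of p53 targets (15 of 20 tested), immediate early genes (19 of 28), mitochondrially encoded genes (13 of 13), glycolysis and hypoxia genes (26 of 30) and area patterning genes (19 of 22) had no call by edgeR, with medians of -0.04, -0.26, -0.04, -0.11 and 0.05. DESeq2 called Klf2 among the immediate early genes and Crym among the area patterning genes. The subplate list had 8 of 12 tested, 6 positive, with a median of 0.81 and no call, and the pluripotency list had 5 of 18 tested with no call by edgeR. Klf2, a Kruppel-like factor in that list, had 0.739 and 0.919 CPM in i4F-Nes, against 6.66 and 10.99 CPM in CTR (edgeR, adjusted p = 0.105), and DESeq2 called it lower.

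Transcripts of other cell types among the members were mostly few and not even between libraries. The 10 microglia markers summed to at most 4.74 CPM and the 8 meningeal markers to at most 0.919 CPM in every library. Endothelial and mural markers summed to 2.401 and 1.84 CPM in i4F-Nes, against 3.08 and 83.2 CPM in CTR, with Cldn5, an endothelial junction protein, at 44.8 CPM in CTR 2. Erythroid markers summed to 2092 and 10.1 CPM in i4F-Nes, against 26.4 and 18.7 CPM in CTR. Cajal-Retzius markers summed to 47.1 and 143 CPM in i4F-Nes, against 11.02 and 99.4 CPM in CTR. Reln, their defining gene, had 5.36 and 6.89 CPM in i4F-Nes, against 5.38 and 54.1 CPM in CTR. It was the 1 negative gene of the 5 Cajal-Retzius markers tested. The other 4 were positive, the median log2 fold change of the 5 was 1.26, and none passed by edgeR. Among the positive ones, Ebf3 had 11.8 and 39.96 CPM in i4F-Nes, against 0.256 and 3.296 CPM in CTR. Interneuron markers summed to 63.2 and 121 CPM in i4F-Nes, against 27.9 and 26.4 CPM in CTR, of which Nrxn3 made up 53.4 and 102 CPM in i4F-Nes, against 15.51 and 12.1 CPM in CTR. Dlx2 was at 0 in every library, and Gad2 was at 0 because the rule set it so. Radial glia markers, of which the rule limited some, summed to 1449 and 1293 CPM in i4F-Nes, against 1350 and 1364 CPM in CTR. Most of each sum was Ptprz1, with 1030 and 948 CPM in i4F-Nes, against 983 and 1091 CPM in CTR. Intermediate progenitor markers summed to 201 and 209 CPM in i4F-Nes, against 178 and 84.9 CPM in CTR.

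The 18 markers of cells found almost only in i4F-Nes libraries, which were known from these data and of which the rule limited Krt8, Cytl1 and Lbhd2, summed to 67.2 and 132 CPM in i4F-Nes members, against 19.99 and 28.0 CPM in CTR members. All 9 that were tested had a positive fold change, none passed by edgeR, and DESeq2 called Crabp2 higher. Crabp2, which binds retinoic acid, had 12.01 and 33.1 CPM in i4F-Nes, against 0.513 and 1.37 CPM in CTR (adjusted p = 0.0977). The part of such transcripts in the 8 calls was not tested.

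Several of the higher genes were found in the same minority of members. From the comparison of i4F-Nes with CTR members, 6 genes, among them Slit3, Epha6, Zfp521, Zfp536 and Pde1a, were used to mark it. None of the 6 was among the 8 calls, so they were not the top genes by p. The choice followed the values, and no test is given. A UMI of 3 or more of these 6 genes was held by 32 of 288 members (11.1%, exact 95% interval 7.73% to 15.3%) and 35 of 142 (24.6%, 17.8% to 32.6%) in i4F-Nes, against 11 of 441 (2.49%, 1.25% to 4.42%) and 2 of 239 (0.837%, 0.102% to 2.99%) in CTR. After thinning to 5000 UMIs the shares were 7.72% and 21.2% in i4F-Nes, against 0.691% and 0 of 200 in CTR 2, which allows up to 1.5%. Members with 5 or 6 of the genes numbered 18 each in i4F-Nes 1 and 2 and 0 in both CTR libraries.

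**Figure D4:**
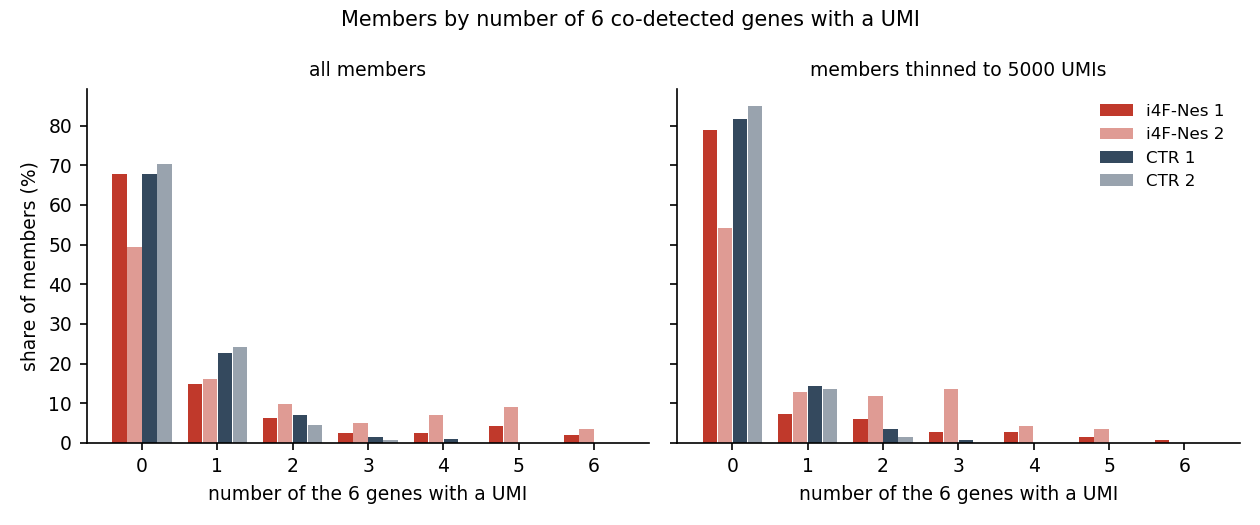
Share of Fezf2 Bcl11b neurons (y axis, percent) by how many of the 6 genes that mark the minority, among them Slit3, Epha6, Zfp521, Zfp536 and Pde1a, had at least 1 UMI (x axis), for each library, in all members (left) and in members thinned to 5000 UMIs (right). Members with 3 or more of the genes were 11.1% and 24.6% in i4F-Nes and 2.49% and 0.837% in CTR before thinning.

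In layer 6 neurons the same co-detection was present in both groups, at 11.5% and 8.33% in i4F-Nes, against 12.9% and 13.0% in CTR. After thinning to 5000 UMIs it was 5.06% and 9.57% in i4F-Nes, against 3.33% and 7.45% in CTR. In callosal-type neurons it was seen in 0 of 132 and 2 of 270 in i4F-Nes, against 0 of 92 and 0 of 320 in CTR. Barcodes with transcripts of microglia or endothelial cells gave 1 of 61 and 0 of 77 in i4F-Nes, against 1 of 43 and 0 of 72 in CTR. Their median depths were 10286 and 4696 UMIs in i4F-Nes and 5724 and 9214.5 UMIs in CTR. Whether such cells express any of the marking genes themselves was not tested. Among all kept barcodes with Neurod6 and without Gad2, the share was 4.95% and 5.18% in i4F-Nes, against 3.396% and 2.45% in CTR. Of the marked members, 0 and 1 in i4F-Nes, and none in CTR, were among the barcodes of highest doublet score.

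The marked members of i4F-Nes were set beside the other members of the same libraries, as a description with no test. Their median depth was 24874.5 and 19997 UMIs, against 18544 and 15579 UMIs in the other members. Of 6208 genes besides the 6 with at least 20 CPM in marked members of both i4F-Nes libraries, 141 were at least 2-fold higher in them in both. Of 6055 genes with at least 20 CPM in the other members, 117 were at least 2-fold lower in the marked members in both. Each count drew only on genes that reached 20 CPM in the cells where they were counted as higher. The marked cells were picked by values of these data, and counts for cells picked at random were not made, so neither count is a result. Gm32647, which was not used to mark them, had 227 CPM in marked and 0.431 CPM in other members of i4F-Nes 1, and 106 and 0.663 CPM in i4F-Nes 2. Crym had 111 CPM in marked and 1.078 CPM in other members of i4F-Nes 1, and 108 and 3.32 CPM in i4F-Nes 2. Brinp1, a gene of postmitotic neurons, had 253 CPM in marked and 13.6 CPM in other members of i4F-Nes 1, and 215 and 12.6 CPM in i4F-Nes 2.

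In both i4F-Nes libraries Bcl11b was higher, and Fezf2, Ldb2, Nefm and Kcnq5 were lower, in the marked than in the other members. Bcl11b had 803 CPM in marked and 427 CPM in other members of i4F-Nes 1, and 903 and 424 CPM in i4F-Nes 2. Fezf2 had 229 CPM in marked and 338 CPM in other members of i4F-Nes 1, and 197 and 323 CPM in i4F-Nes 2. Nefm had 27.1 CPM in marked and 58.9 CPM in other members of i4F-Nes 1, and 35.9 and 94.8 CPM in i4F-Nes 2. Pou3f2, an upper-layer POU factor, had 33.5 CPM in marked and 255 CPM in other members of i4F-Nes 1, and 17.9 and 365 CPM in i4F-Nes 2. Tubb3 had 2370 CPM in marked and 2335 CPM in other members of i4F-Nes 1, and 2257 and 2490 CPM in i4F-Nes 2. The few marked members of CTR did not share all of these differences. In the 11 of CTR 1, Bcl11b had 946 CPM in marked and 479.5 CPM in other members, but Fezf2 had 550.03 and 457 CPM and Nefm had 73.1 and 59.9 CPM. In the 2 of CTR 2, Bcl11b had 454 CPM in marked and 437 CPM in other members, and Fezf2 had 265 and 445 CPM. Gm32647 was at 0 CPM in the marked members of both CTR libraries. No cell type name is given to the marked members, since they were defined after the values were seen.

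Those of the 8 calls that could still be tested did not pass when the marked members were left out. The 6 genes that marked them were picked from this same comparison after its values were seen. Leaving out cells by these genes removed 32 and 35 members in i4F-Nes, against 11 and 2 in CTR. That choice favoured a loss of calls higher in i4F-Nes, so the loss is no independent result. When members with 3 or more of the 6 genes were left out of all 4 libraries, 2 of 11387 genes passed edgeR's threshold, Zfp536 and Calb2 (adjusted p = 0.0440 each), both higher in i4F-Nes. Zfp536 is 1 of the 6 genes that decided which cells were left out and was chosen from the same comparison, so its p is no independent test. The p of Calb2 rests on cells chosen after the values were seen, and over all members Calb2 did not pass. St6galnac5 then had 4.31 and 4.64 CPM in i4F-Nes, against 0.795 and 1.12 CPM in CTR (log2 fold change 2.22, adjusted p = 1.00). Sdk1 had 74.4 and 99.5 CPM in i4F-Nes, against 51.6 and 39.0 CPM in CTR (log2 fold change 0.90, adjusted p = 0.951). Igfbp3 was little moved, at 27.4 and 23.2 CPM in i4F-Nes, against 61.2 and 55.3 CPM in CTR (log2 fold change -1.21, adjusted p = 0.301). Gm32647, Slc35f3 and Tafa1 were too low in the remaining members to be tested.

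Co-detection of other regulators in the members was compared after thinning each cell to 5000 UMIs, which left out 3 and 24 members in i4F-Nes and 7 and 39 in CTR. Tbr1 was detected in 27.0% and 26.3% of members in i4F-Nes, against 36.9% and 34.5% in CTR, with no overlap (exact permutation test, p = 0.333, the smallest that the design allows). Without thinning these shares were 66.0% and 47.2% in i4F-Nes, against 71.0% and 57.7% in CTR. At 10000 UMIs the Tbr1 shares were 49.0% and 42.2% in i4F-Nes, against 54.3% and 47.2% in CTR, and they overlapped. Sox5 was detected in 96.5% and 89.0% in i4F-Nes, against 98.4% and 95% in CTR, and Ldb2 in 80.7% and 62.7%, against 77.6% and 85.0% (exact permutation test, p = 0.667 for each). At 10000 UMIs both were lower in both i4F-Nes libraries (exact permutation test, p = 0.333 for each). In the microglia and endothelial barcodes Tbr1 was detected in 7.32% and 5.26% in i4F-Nes, against 13.0% and 7.50% in CTR, and the part of free RNA in the shares of members was not tested.

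The members of a library also varied among themselves. By the variance to mean ratio of thinned UMIs, with a median of 1.07 over 5716 genes, the genes with the highest lowest-library values were Ptprd, Tmsb4x and Malat1. The ratio was not adjusted for level. The top-ranked genes had thinned means of 3.32 to 99.0 UMIs per cell, against a floor of 0.1, so the ranking leaned to abundant transcripts. Ptprd, a receptor phosphatase of synapses, had ratios of 21.8 and 30.9 in i4F-Nes and 17.6 and 17.2 in CTR. Among other genes, Sox5 had ratios of 10.0 and 10.2 in i4F-Nes and 9.27 and 7.17 in CTR, Kcnq5 of 7.57 and 9.35 in i4F-Nes and 10.2 and 6.48 in CTR, and Robo2, an axon guidance receptor, of 7.37 and 6.78 in i4F-Nes and 7.32 and 7.15 in CTR. For Kcnq5 the groups overlapped, and for Sox5 the ratios of both i4F-Nes libraries exceeded those of both CTR libraries, a difference that was not tested.

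Whether the response of the Fezf2 Bcl11b neurons differed from that of the layer 6 neurons was tested with an interaction term between class and group, in a fit that kept each library as a block. Of 11760 genes tested, 21 had a different response (edgeR, adjusted p under 0.05, 0.179% of genes), 15 (0.128%) with a higher log2 fold change in Fezf2 Bcl11b neurons and 6 (0.051%) with a lower one. Leaving out each library in turn gave 44 to 214 such genes. Gria1, an AMPA receptor subunit, had 109 and 62.5 CPM in i4F-Nes members against 53.6 and 46.1 CPM in CTR members, and 168 and 89.7 CPM in i4F-Nes layer 6 neurons against 210 and 155 CPM in CTR layer 6 neurons. The difference of the log2 fold changes was 1.27 ± 0.17 (SE, edgeR, adjusted p = 0.000167). Among these 15 were 6 of the 8 genes called in the members, namely Gm32647, St6galnac5, Plekhg1, Slc35f3, Sphkap and Sdk1. Nrp2 and Tafa1 were not, and Tafa1 also passed the test within the layer 6 neurons, with 10.2 and 17.4 CPM in i4F-Nes, against 0.573 and 0 CPM in CTR (edgeR, adjusted p = 0.0471). The overlap reuses the same member counts and is no independent result. In both i4F-Nes libraries each of the 6 shared genes was higher in marked than in other members. Marked members were 11.1% and 24.6% of members in i4F-Nes, against 2.49% and 0.837% in CTR. Layer 6 neurons held such cells in both groups. The interaction was not refitted without marked members, and their part in these differences was not tested.

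Of the 6 genes with a lower response in the members, 3 were markers of vascular cells, Sparc, Igfbp7 and Flt1, and in members each was highest in CTR 2, where endothelial and mural markers summed to 83.2 CPM. In layer 6 neurons each was highest in i4F-Nes 2, where these markers summed to 77.4 CPM, against at most 5.25 CPM in the layer 6 neurons of the other libraries. Sparc had 0.554 and 0.919 CPM in i4F-Nes members against 0.641 and 28.8 CPM in CTR members, and 2.95 and 17.4 CPM in i4F-Nes layer 6 neurons against 0.191 and 0 CPM in CTR layer 6 neurons. The part of such transcripts in these 3 differences was not tested. The other 3 were Lingo2, Jun and Kcnt2. Jun, an immediate early transcription factor, had 104 and 62.9 CPM in i4F-Nes members against 136 and 63.2 CPM in CTR members, and 110 and 71.6 CPM in i4F-Nes layer 6 neurons against 74.7 and 34.99 CPM in CTR layer 6 neurons (difference -0.997, edgeR, adjusted p = 0.00573). Without CTR 1 the adjusted p for Jun was 0.105.

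**Figure D5:**
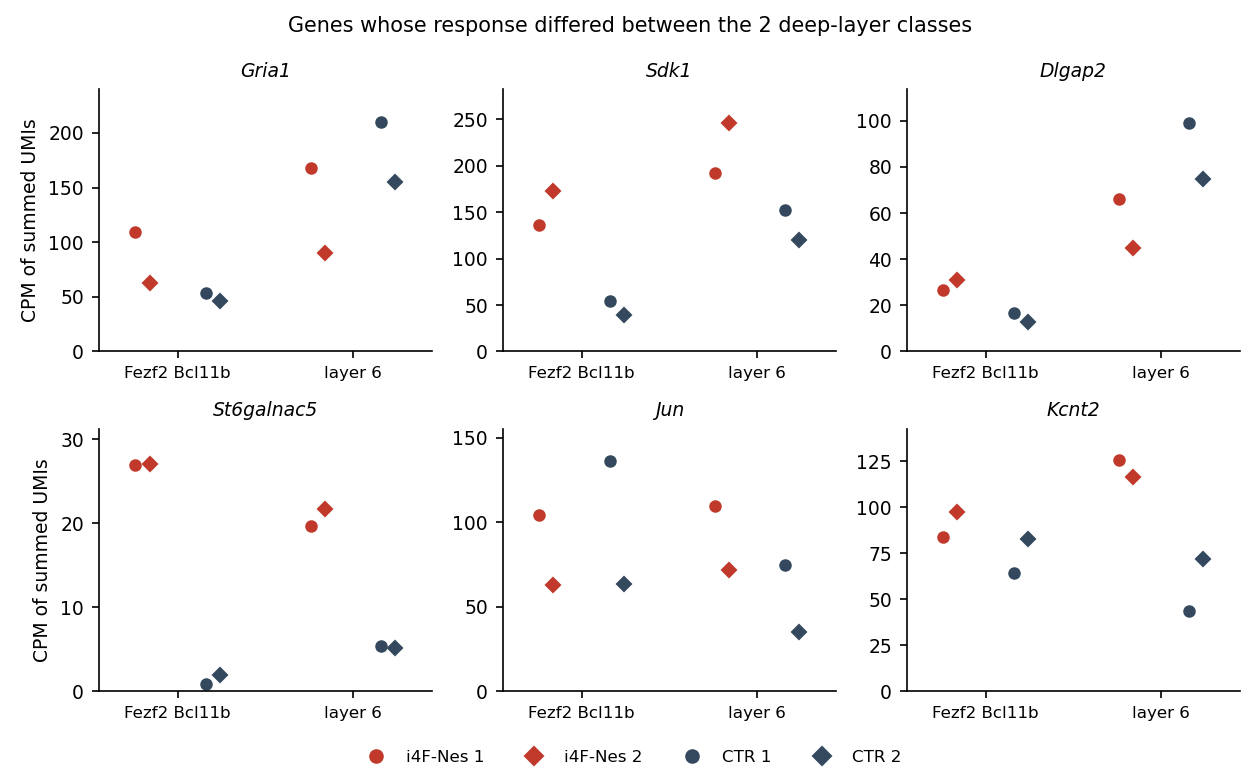
CPM of summed UMIs (y axis) in Fezf2 Bcl11b neurons and layer 6 neurons (x axis) of 6 genes whose response differed between the classes, with i4F-Nes libraries in red to the left of CTR libraries in dark blue, circles for library 1 and diamonds for library 2. Gria1 had 109 and 62.5 CPM in i4F-Nes and 53.6 and 46.1 CPM in CTR in Fezf2 Bcl11b neurons, while in layer 6 neurons it had 168 and 89.7 CPM in i4F-Nes and 210 and 155 CPM in CTR.

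Against the callosal-type neurons, 6 of 11596 genes had a different response (edgeR, adjusted p under 0.05, 0.0517% of genes), 5 (0.0431%) with a higher log2 fold change in Fezf2 Bcl11b neurons and 1 (0.00862%), Sparc, with a lower one. Leaving out each library in turn gave 24 to 93. Lin7a, a scaffold protein of synapses, had 24.9 and 30.8 CPM in i4F-Nes members against 12.05 and 13.2 CPM in CTR members, and 7.44 and 10.0 CPM in i4F-Nes callosal-type neurons against 22.3 and 23.5 CPM in CTR callosal-type neurons. Its difference was 2.47 ± 0.31 (SE, edgeR, adjusted p = 0.00877). Kitl, the ligand of the Kit receptor, had 17.4 and 39.5 CPM in i4F-Nes members against 3.08 and 5.22 CPM in CTR members, and 24.97 and 53.9 CPM in i4F-Nes callosal-type neurons against 23.1 and 31.7 CPM in CTR callosal-type neurons (difference 2.20, edgeR, adjusted p = 0.0147).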

How the data were processed

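Single-cell 3′ RNA libraries (10x Genomics v3.1 chemistry, papain dissociation, per the labels' protocols) of 2 i4F-Nes and 2 CTR samples were used, grouped by sample title. The authors deposited UMI counts, whole numbers for each gene in each barcode, made with cellranger 7.0.1, per the file headers. The submitters' processing notes name mm10 as the genome build. Treatment of intronic reads, free RNA and doublets is not given in the sources used here. Coordinates came from GENCODE M21 on GRCm38, matched by gene ID for all 283 named genes.

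Barcodes with at least 1000 UMIs, 500 genes and at most 10% mitochondrial UMIs were kept, 28672 of 35255. Doublets were not removed in the main comparison. As an alternative, the barcodes of highest Scrublet score (scanpy 1.11.5) were left out, 0.8% per 1000 barcodes. UMIs were summed per library and class and tested with edgeR 4.0.16 (R 4.3.3, quasi-likelihood, TMM, filterByExpr, robust), with Benjamini-Hochberg adjustment over all genes at 0.05. Printed levels are CPM of these sums without TMM factors, which were 0.945 to 1.05. DESeq2 1.42.0 was the other tool. Ratios of levels between classes or cells used CPM plus 1. Shares carry 95% Clopper-Pearson (exact) intervals. Where no cell was found, the share that 3 cells would make is the limit given. The test was checked on simulated counts for 11434 genes of the members, where 100% of genes changed by a log2 of 2 and 47.8% of those changed by 1 were recovered, 98.3% at -2 and 41.2% at -1, with 4 false calls. The simulation gave every gene the same dispersion (spread between libraries, 0.0366) and changed only genes averaging over 10 CPM. Recovery may be lower for genes that vary more or are less abundant. In the data, Slit3 did not pass with a log2 fold change of 4.20.

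Named genes were those of the rule and its markers, called genes over 10 CPM, the 10 lowest p per direction and per interaction over 20 CPM, listed genes over 50 CPM, the genes that most set the members apart from either class, and the most variable ones. Called or listed genes below these levels, the 6 marking genes and the genes given for the marked members were chosen after their values were seen. The members, the rule and the gene lists were chosen with earlier results of these data known. Some genes are not reported here.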

Additional observations from a re-analysis of the deposited data

Results flagged for a closer look

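The response of 5 genes to the i4F-Nes genotype differed between Fezf2 Bcl11b neurons and layer 6 neurons by a direct test of the difference (edgeR's quasi-likelihood test of the interaction, Benjamini-Hochberg adjustment over 11760 genes), in genes averaging 20 CPM or more over the libraries. The difference of the log2 fold changes was 1.27 for Gria1, whose levels are given above. For Sdk1 it was 1.03 (adjusted p = 0.00101), with 136 and 173 CPM in i4F-Nes members against 53.8 and 38.7 CPM in CTR members, and 192 and 247 CPM in i4F-Nes layer 6 neurons against 153 and 120 CPM in CTR layer 6 neurons. For Dlgap2, a scaffold protein of the postsynaptic density, it was 1.51 (adjusted p = 0.00131), with 26.6 and 30.8 CPM in i4F-Nes members against 16.5 and 12.6 CPM in CTR members, and 66.3 and 44.9 CPM in i4F-Nes layer 6 neurons against 99.1 and 74.7 CPM in CTR layer 6 neurons. In i4F-Nes, Sdk1 had 508 and 338 CPM in marked members, against 74.4 and 99.5 CPM in other members. The differences of response were not refitted without marked members.

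The difference was -0.997 for Jun, which lost the call without CTR 1. It was -0.86 for Kcnt2, a sodium-activated potassium channel (adjusted p = 0.0456), with 83.9 and 97.4 CPM in i4F-Nes members against 64.3 and 82.96 CPM in CTR members, and 126 and 116 CPM in i4F-Nes layer 6 neurons against 43.7 and 72.1 CPM in CTR layer 6 neurons. Without i4F-Nes 1 or without CTR 1 the Kcnt2 difference was -0.68 or -0.67 and no longer passed.

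The response of 3 further genes differed between Fezf2 Bcl11b neurons and callosal-type neurons by the same test over 11596 genes. The difference was 2.47 for Lin7a. For Rnd2, a small GTPase of migrating neurons, it was 1.98 (adjusted p = 0.0237), with 122 and 135 CPM in i4F-Nes members against 88.6 and 23.3 CPM in CTR members, and 26.6 and 14.997 CPM in i4F-Nes callosal-type neurons against 57.0 and 15.04 CPM in CTR callosal-type neurons. For Gm29260 it was 1.51 (adjusted p = 0.0237), with 41.7 and 48.7 CPM in i4F-Nes members against 19.99 and 12.4 CPM in CTR members, and 59.0 and 62.5 CPM in i4F-Nes callosal-type neurons against 93.3 and 38.5 CPM in CTR callosal-type neurons.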

How the results depend on the processing

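With 2 libraries a group, no exact permutation p could fall below 0.333, and calls rested on spread shared across genes. The lower share of Fezf2 Bcl11b neurons in i4F-Nes kept its sign in all 11 alternatives, at -1.89 to -2.64 percentage points under other rules and denominators. The 8 calls in members became 45 with DESeq2, 4 with RLE scaling, 124 without a low count filter, 13 under a stricter rule, 21 without the Krt8, Cytl1 and Lbhd2 limit, 0 with the rule on thinned cells, 2 without the marked members (chosen after seeing the data), and 18 to 136 with a library left out, where a lone library is assumed to vary like the others. The 8 calls in layer 6 neurons became 18 with DESeq2 and 32 to 169 with a library left out. In callosal-type neurons, where edgeR made 0 calls, leaving out a library gave 1 to 113. The 21 and 6 differences of response from layer 6 and callosal-type neurons became 74 and 113 without a low count filter, and 44 to 214 and 24 to 93 with a library left out. The causes were not tested. Of 480 refits of single named genes, 343 kept direction and side of the threshold, 113 passed it anew, 23 no longer passed, and 1 turned, Brinp1, at -0.49 without the marked members.

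With replicate numbers as a block (replicate block), the calls were 255 in members, 185 in layer 6 neurons and 72 in callosal-type neurons. Deviations of same-numbered libraries from their group means correlated at 0.423 in members, 0.445 in layer 6 neurons and 0.378 in callosal-type neurons, but with 2 pairs and no label of a shared batch the numbers are not shown to pair the libraries.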

Other observations

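In the 2 marked members of CTR 2, Reln had 2335 CPM and Calb2 had 341 CPM, both genes of Cajal-Retzius cells, and these cells had a median of 39612.5 UMIs. When marked members were left out of every library, Calb2, a calcium-binding protein, had 11.9 and 19.2 CPM in i4F-Nes, against 0.663 and 0.281 CPM in CTR (edgeR, adjusted p = 0.0440). Over all members it had 17.2 and 52.4 CPM in i4F-Nes, against 0.641 and 7.69 CPM in CTR, and did not pass (edgeR, unadjusted p = 0.0921). The exclusion took out the 2 marked members of CTR 2 and was chosen after the values were seen. The adjusted p for Calb2 is therefore no independent test.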
